A study of Mus musculus with 6 samples.

Results

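miR-140, miR-145 and miR-27b are 3 microRNAs (miRNAs) known as regulators of cartilage, and they were chosen by name. They are 3 of the 380 named miRNAs on a quantitative PCR panel and 3 of the 123 that gave a threshold cycle (Ct) in every sample. The panel was run on RNA from exosomes, small vesicles that cells release, purified from mouse serum 2 weeks after ACLT. The abbreviation is read here as anterior cruciate ligament transection, a surgical route to osteoarthritis in mice. All 6 samples share this surgery and differ in treatment, with 3 vehicle and 3 OCExoInhib samples. OCExoInhib is not explained in the labels; in the known study it blocks exosome release and is targeted to osteoclasts, which resorb bone. The labels used here give no strain, sex, age or dose. The design text states that exosomal miRNA of 3 mice a group was pooled in equal amounts. Whether a group's 3 samples came from different mice or were repeat runs of 1 pool is not stated. The p-values therefore reflect only sample-to-sample spread, and that spread may be technical.

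A miRNA is a short RNA that guides a repressor complex to messenger RNAs, mostly through its seed, bases 2 to 8 counted from its 5′ end. miR-140 is made in cartilage from an intron of the ubiquitin ligase gene Wwp2 under control of Sox9, the master transcription factor of chondrocytes, and it restrains the aggrecan-cleaving protease Adamts5. miR-145 is made together with miR-143, is abundant in smooth muscle and fibroblasts, and represses Sox9 in chondrocytes. miR-27b is made in a cluster with miR-23b and miR-24, and is reported to repress the collagenase MMP13 in human chondrocytes. Its relative miR-27a comes from a paralogous cluster.

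The members had 3 distinct seeds. The 2 members below are shown with miR-27a, the only other panel miRNA that shared a seed with any member, because the comparison of miR-27b with miR-27a rests on a single base. The RNAs are those in the deposited table, with the seed in capitals.
miR-140: cAGUGGUUuuacccuaugguag
miR-27b: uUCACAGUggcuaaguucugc
miR-27a: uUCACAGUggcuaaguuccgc
The panel names no arm for miR-140. The printed RNA matched the 5p arm of the RefSeq hairpin Mir140 at chr8:107551249-107551270 on the plus strand of GRCm38.p6, within the span of Wwp2. The printed miR-27b was RefSeq's mmu-miR-27b-3p at chr13:63300760-63300780, plus strand, within the span of the aminopeptidase gene Aopep. That of miR-27a was mmu-miR-27a-3p at chr8:84208727-84208747, plus strand, where no other gene of the RefSeq table spanned it. Counted from the 5′ end of miR-27b, the pair differed by U19C and was identical at the other 20 of 21 bases. Whether the assays tell them apart was not tested.

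A Ct is the PCR cycle at which fluorescence crosses a threshold, so a lower Ct is more RNA and 1 cycle is about 1 doubling. A value at Ct 35 or later of the 40 cycles rests on few template molecules. The level used for tests is the negative of the deposited difference from the normalizer wells P21 to P23, on the log2 scale, and every difference is OCExoInhib minus vehicle. In serum, fewer vesicles from a source and less miRNA per vesicle cannot be told apart. Of the 123 miRNAs with a Ct, 108 to 109 had a Ct under 35 in each vehicle sample and 112 to 117 in each OCExoInhib sample. The median Ct was 26.714 to 28.167 in vehicle and 29.201 to 29.564 in OCExoInhib samples. Testing was limited to 115 miRNAs that came up before Ct 35 in 3 or more samples, all 3 members included. Their median difference was −0.54, and other scalings moved it to 0.64 (global mean), 0.20 (quantile), 0.18 (raw Ct) and 1.98 (each sample centred on its median).

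Of the 3 members, miR-140 rose and miR-145 fell in OCExoInhib samples by limma at an adjusted p under 0.05, and miR-27b did not pass. By the same rule 23.5% of the 115 tested miRNAs passed, 6.09% higher and 17.4% lower. With 3 members this count shows nothing beyond the single results. The groups did not overlap for miR-140 and miR-145 and overlapped for miR-27b, where 26.1% of tested miRNAs had groups that did not overlap.

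miR-140, the cartilage-enriched member, came up very late in vehicle serum and near the middle of the miRNAs with a Ct in OCExoInhib serum. Its raw Ct was 35.953, 36.735 and 34.867 in vehicle samples 1, 2 and 3, and 29.346, 29.352 and 29.280 in OCExoInhib samples 1, 2 and 3. All OCExoInhib samples were thus earlier than all vehicle samples by more than 5 cycles, and 2 of the 3 vehicle values were at Ct 35 or later. It entered the tests with 4 values under Ct 35, those of the 3 OCExoInhib samples and vehicle 3. On the normalized log2 scale its level was −4.96, −6.166 and −3.675 in vehicle and 1.00, 1.28 and 0.32 in OCExoInhib samples. The group means were −4.93 ± 1.25 and 0.87 ± 0.491 (SD, n = 3 each).

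The rise of miR-140 was 5.80 on the log2 scale (SE 0.82, 95% interval 4.05 to 7.55, limma adjusted p 6.59e-05), or 55.8-fold. Because 2 vehicle values were late, its size is uncertain. With Ct above 35 set to 35 the log2 difference was 4.91, and with late values set to missing, which leaves only vehicle 3, the earliest, in its group, it was 4.54, given as a value with no test. All 7 miRNAs that rose had at least 1 late vehicle value, 17 of 21 values in all, and with Ct under 35 required in all samples 0 were called higher by limma because none of the 7 was tested. The rise was 5.19 without vehicle 2 and 6.43 without vehicle 3. It passed in all 20 settings with at least 2 samples a group, the one reported included, with adjusted p from 2.58e-08 to 0.0344. The authors' deposited table gives a ratio of vehicle over OCExoInhib of 0.018 for miR-140.

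**Figure D1:**
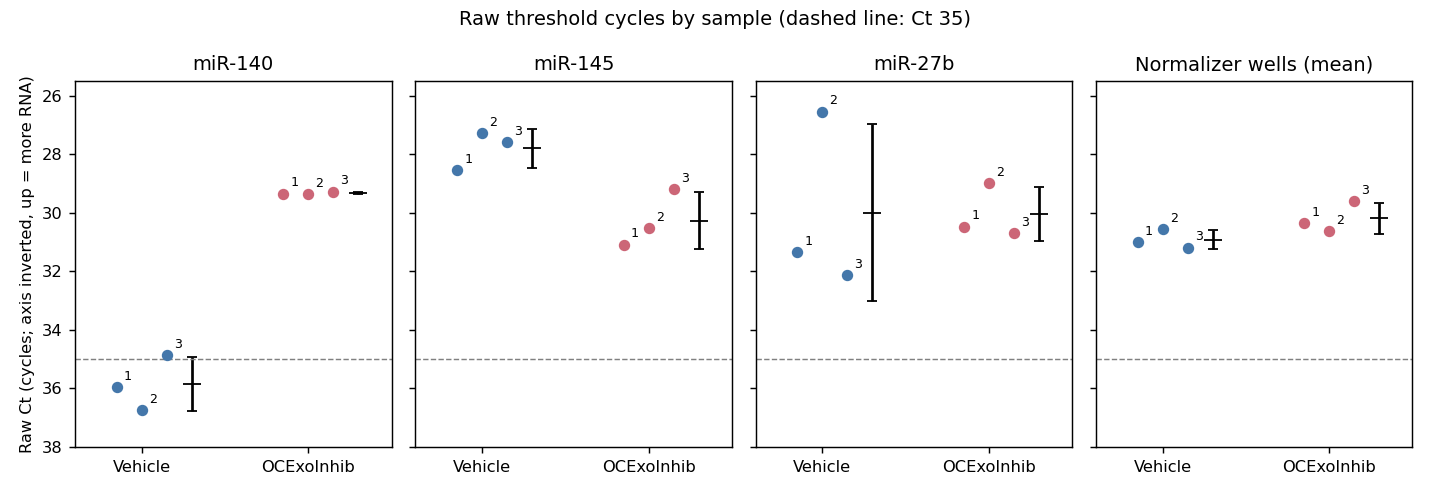
Raw Ct (cycles, inverted axis) of miR-140, miR-145, miR-27b and the mean of the normalizer wells in each vehicle (blue) and OCExoInhib (red) sample, numbered by replicate, with group mean and SD as black bars and Ct 35 dashed. miR-140 lies near Ct 29.3 in all OCExoInhib samples and between 34.867 and 36.735 in vehicle, miR-145 is earlier in vehicle, and for miR-27b vehicle 2 stands at 26.545 apart from the other samples.

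miR-145, the Sox9 repressor, moved the opposite way. Its raw Ct was 28.532, 27.267 and 27.594 in vehicle samples 1, 2 and 3, and 31.087, 30.517 and 29.201 in OCExoInhib samples 1, 2 and 3. Every OCExoInhib sample was later than every vehicle sample, with OCExoInhib 3 the closest to the vehicle group. None of these values was late. Normalized levels were 2.461, 3.302 and 3.598 in vehicle and −0.737, 0.111 and 0.401 in OCExoInhib samples, with means of 3.12 ± 0.590 and −0.075 ± 0.591 (SD, n = 3 each).

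On the deposited normalization miR-145 fell by 3.20 on the log2 scale (SE 0.76, 95% interval −4.82 to −1.57, limma adjusted p 0.00379), which is 9.16-fold, and the authors' deposited table gives the same 9.16 for vehicle over OCExoInhib. Relative to the median of all tested miRNAs the difference was −2.65. The direction was downward in all 21 settings with a value, but the call depended on the normalization. The difference was −2.02 with global mean (adjusted p 0.0831), −1.33 with quantile normalization (adjusted p 0.418) and −0.67 with centring on sample medians (adjusted p 0.436), none of which passed. It passed with each sample left out, with adjusted p from 0.00497 to 0.0222. The normalizer wells averaged Ct 30.9 ± 0.318 in the vehicle group against 30.2 ± 0.531 under OCExoInhib (SD, n = 3 each). The wells differed in this, by −1.004 cycles (OCExoInhib minus vehicle) for P21, −1.205 for P22 and 0.035 for P23. The groups did not overlap for P21 and overlapped for P22 and P23. With well P23 alone as the normalizer miR-145 differed by −2.44 (limma adjusted p 0.0443).

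The Ct values of miR-145 also repeated those of other assays. In OCExoInhib samples 1, 2 and 3 its 31.087, 30.517 and 29.201 were the same to 3 decimals for let-7e, a member of the let-7 family, and for miR-151-3p. These 3 miRNAs have 3 distinct seeds. In vehicle 2 its 27.267 was also that of miR-379. Its difference of 0.938 cycles between vehicle 1 and vehicle 3 recurred, within 0.0015, in 16 other miRNAs, and its differences of 0.570 (OCExoInhib 1 minus 2), 1.886 (1 minus 3) and 1.316 (2 minus 3) recurred in 9, 9 and 4 others. Of the 115 tested miRNAs, 23 (20%) carried a difference shared with at least 4 others, and 22 of these 23 were among the 27 that passed. miR-145 did and miR-140 and miR-27b did not. The part of these repeats in the fall of miR-145 was not tested.

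miR-27b, the MMP13-linked member, showed a wide spread in vehicle and no difference that passed. Its raw Ct was 31.335, 26.545 and 32.122 in vehicle samples 1, 2 and 3, and 30.476, 28.987 and 30.685 in OCExoInhib samples 1, 2 and 3. Vehicle 2 came up over 4 cycles before the other vehicle samples, and sample 2 was the earliest in both groups. In raw Ct the remaining vehicle samples were later than all OCExoInhib samples, so there the groups overlapped through vehicle 2. Normalized levels were −0.342, 4.02 and −0.930 in vehicle and −0.126, 1.64 and −1.083 in OCExoInhib samples, with means of 0.917 ± 2.71 and 0.144 ± 1.38 (SD, n = 3 each). On this scale the groups overlapped without vehicle 2 as well. OCExoInhib 3 lay below vehicle 1 and 3, and OCExoInhib 1 and 2 lay above them. The vehicle SD ranked 2nd largest of the 115 tested miRNAs, whose median was 0.879.

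The difference of miR-27b was −0.77 (SE 1.15, 95% interval −3.22 to 1.67, limma adjusted p 0.866). On a linear scale the interval runs from 0.107 to 3.19 times the vehicle level, so changes of several-fold either way lie within it. The sign turned to 0.78 without vehicle 2 (adjusted p 0.95), to 0.405 with global mean, 0.525 with quantile normalization and 1.75 with centring on sample medians (adjusted p 0.106). The ratio in the authors' deposited table was 1.709 for vehicle over OCExoInhib.

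miR-27a, which shares the seed of miR-27b, did not follow it from sample to sample. Its raw Ct was 26.056, 27.643 and 28.411 in vehicle samples 1, 2 and 3 and 25.628, 28.683 and 26.959 in OCExoInhib samples 1, 2 and 3. Sample 2 was thus not the earliest in either group, unlike for miR-27b. The Ct gap of miR-27a minus miR-27b within a sample ran from −5.279 in vehicle 1 to 1.098 in vehicle 2, and from −4.848 to −0.304 in OCExoInhib samples. The difference of miR-27a was −0.45 (SE 0.91, limma adjusted p 0.866), also not past the threshold. Over the 6 samples the normalized levels of the pair had a Pearson r of −0.281, given as a description of samples that share a normalizer. Among the miRNAs made with the members, miR-143, miR-23b and miR-24 gave no Ct in any sample, and neither did miR-23a of the miR-27a cluster. On the whole panel 32.4% of named miRNAs gave one.

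**Figure D2:**
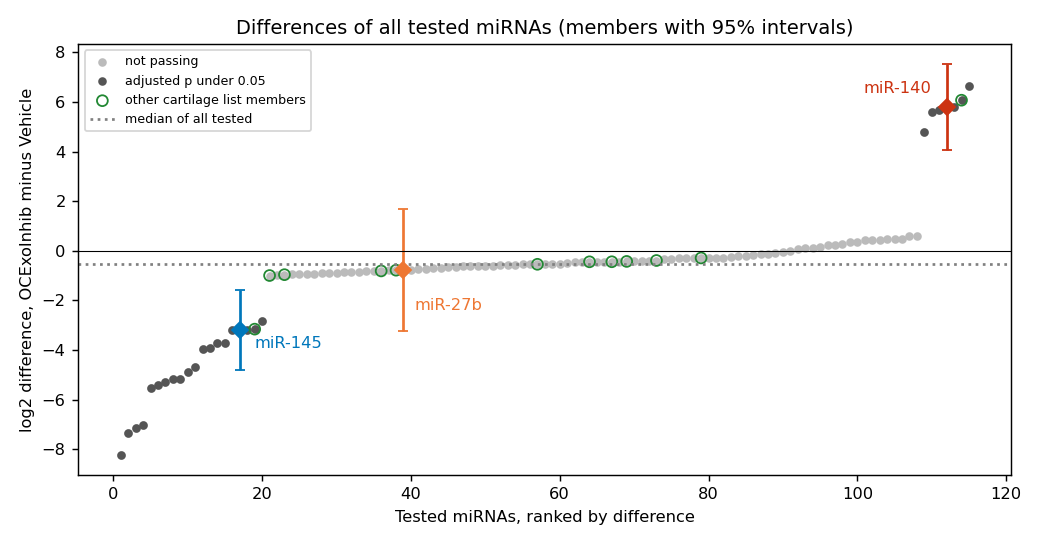
The log2 difference (OCExoInhib minus vehicle) of the 115 tested miRNAs in rank order, dark where the limma adjusted p was under 0.05, with the 3 members as diamonds with 95% intervals and other cartilage list members ringed in green. miR-140 lies among the 7 that rose, miR-145 among the 20 that fell, and miR-27b (−0.77) near the median of −0.54.

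**Figure D3:**
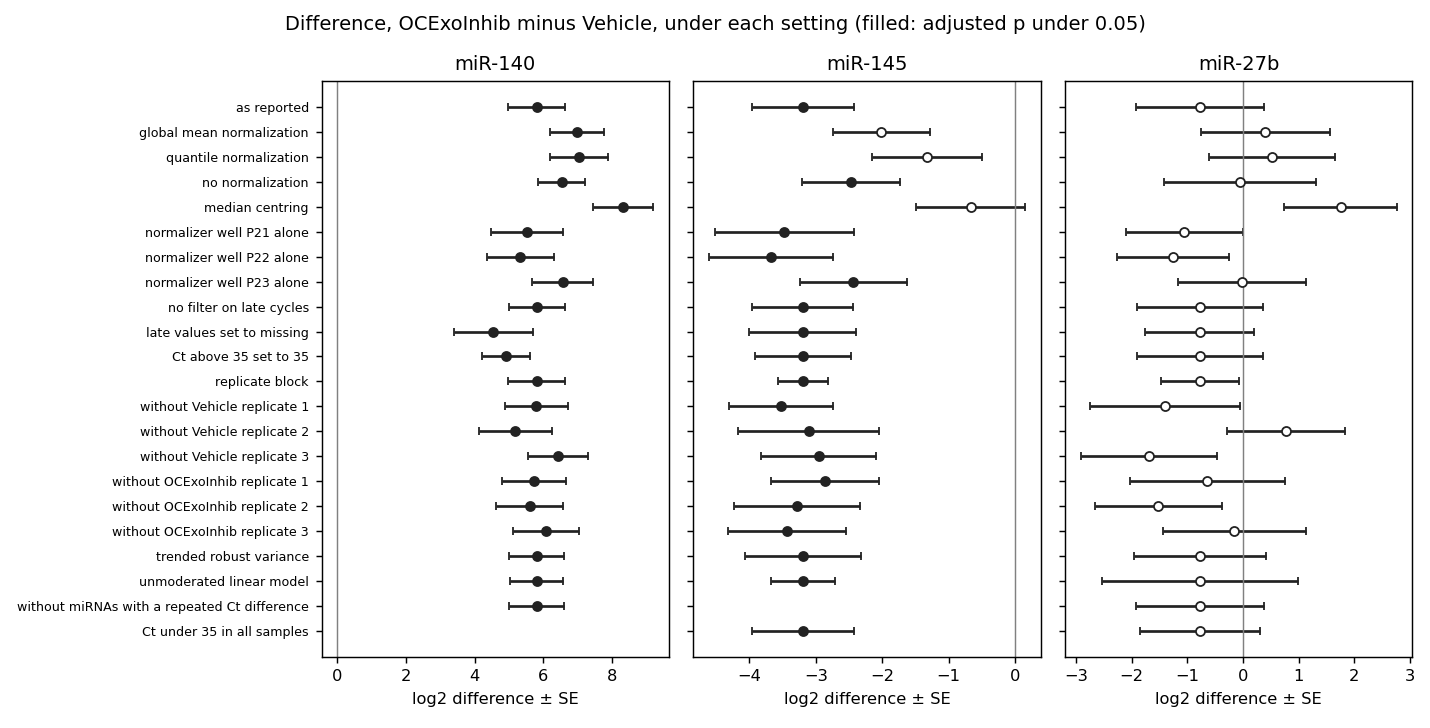
The log2 difference (OCExoInhib minus vehicle) with its SE for miR-140, miR-145 and miR-27b under each setting with a value, filled where the limma or linear model adjusted p was under 0.05. miR-140 stays between 4.54 and 8.33 (4.54 is with late values missing, where vehicle has 1 sample), miR-145 loses its call with global mean, quantile and median centring, and miR-27b lies on both sides of 0 and never passes.

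Comparing members within a sample removes the normalizer. The raw Ct of miR-140 minus that of miR-145 was 7.421, 9.468 and 7.273 cycles in vehicle samples 1, 2 and 3, and −1.741, −1.165 and 0.079 in OCExoInhib samples 1, 2 and 3. The groups lay wholly apart, with means of 8.05 ± 1.23 and −0.942 ± 0.930 cycles (SD, n = 3 each). The gap of miR-140 minus miR-27b was also larger in every vehicle sample, with 4.618, 10.190 and 2.745 against −1.130, 0.365 and −1.405 cycles. For miR-145 minus miR-27b the groups overlapped, at −2.803, 0.722 and −4.528 in vehicle and 0.611, 1.530 and −1.484 in OCExoInhib samples. These gaps are descriptions of the same values that entered the tests.

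Ranks of the raw Ct among the 123 measured miRNAs, with 1 the earliest, need no normalizer either. miR-140 ranked 115, 121 and 109 in vehicle and 61, 57 and 64 in OCExoInhib samples, without overlap. miR-145 ranked 66, 66 and 59 in vehicle and 86, 82 and 60 in OCExoInhib samples, and the groups overlapped through OCExoInhib 3. miR-27b ranked 88, 60 and 93 against 77, 55 and 92. By rank the groups lay apart for miR-140 and overlapped for miR-145 and miR-27b. How many of all measured miRNAs separate by rank was not counted, so this shows nothing beyond the single results.

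**Figure D4:**
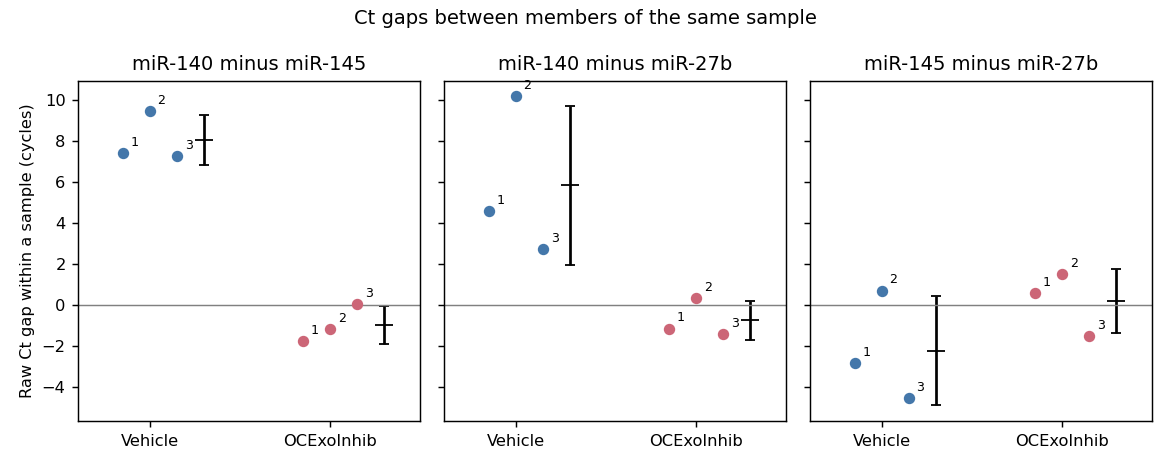
Raw Ct gaps in cycles between pairs of members in the same sample, vehicle (blue) and OCExoInhib (red), numbered by replicate, with group mean and SD as black bars. The gap of miR-140 to miR-145 is 7.273 to 9.468 cycles in vehicle and near 0 in OCExoInhib samples, while the gap of miR-145 to miR-27b overlaps between groups.

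In order of normalized level, vehicle samples had miR-145 first, then miR-27b, then miR-140. miR-27b overlapped miR-145 through vehicle 2, and miR-140 lay below both in every vehicle sample. In OCExoInhib samples the mean levels of miR-140 (0.87), miR-27b (0.14) and miR-145 (−0.075) overlapped within their spread. Assay efficiencies are not stated in the labels or files used here, so this is an order of cycles relative to the wells and not of molecules.

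A list of miRNAs with known roles in cartilage or osteoarthritis, members included, passed about as often as the panel. Of 28 list members on the panel, the 3 members included, 15 gave a Ct and all 15 were tested. miR-140 and miR-34a rose, miR-145 and miR-125b-5p fell, and 11 did not pass, with a smallest limma adjusted p of 0.866 among these. The 4 of 15 that passed are 26.7%, near the 23.5% of all tested miRNAs, so the count shows nothing particular to the list. miR-34a, a p53 target linked to chondrocyte senescence, had raw Ct values of 34.115, 36.040 and 38.670 in vehicle and 29.540, 28.970 and 29.918 in OCExoInhib samples (log2 difference 6.07, SE 1.01, limma adjusted p 0.000193). All its OCExoInhib values were earlier than all its vehicle values, and it carried a repeated Ct difference. Since 2 vehicle values were late the size is uncertain, with 4.50 when Ct above 35 was set to 35, and it did not pass with the plain linear model (adjusted p 0.0649).

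miR-125b-5p, reported to restrain the protease ADAMTS4, had raw Ct values of 28.195, 28.096 and 27.257 in vehicle and 31.210, 30.322 and 29.324 in OCExoInhib samples (log2 difference −3.16, SE 0.78, limma adjusted p 0.00488). Its groups did not overlap, its size was close to that of miR-145, and it too carried repeated Ct differences. Like that of miR-145, its call was lost with global mean, quantile normalization and median centring. List calls were 2 higher and 0 lower with global mean and with quantile normalization, and 6 higher and 0 lower with median centring. Of 115 tested miRNAs, 7 higher and 14 lower passed with global mean, 7 and 9 with quantile, and 57 and 11 with median centring. Unlike miR-145, miR-125b-5p also missed the threshold with well P23 alone as the normalizer (adjusted p 0.0585). The 11 list members that did not pass as reported had differences from −0.998 to −0.290. All were below 0 on the deposited normalization and above 0 with global mean normalization. Over all tested miRNAs 71 of the 88 that did not pass were below 0 on the deposited normalization (80.7%). The median of the list was −0.55, beside −0.54 for all tested miRNAs. Without miRNAs that carried a repeated difference, miR-140 was the 1 list member of 12 that passed, beside 5 of all 92 tested. This setting leaves out miR-34a, miR-145 and miR-125b-5p, the other list members that passed as reported, so it could not test them.

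The miRNAs most like each member were taken by the Pearson r of normalized log2 level over the 6 samples. Since 2 groups of 3 dominate such an r where they differ, it describes likeness of levels only. Closest to miR-140 were miR-425 (r 0.961), miR-29c (0.951) and miR-127 (0.935), each of which rose by limma, with log2 differences of 4.79, 5.68 and 5.61. Vehicle values were late in 2, 3 and 2 samples, so miR-29c entered the tests through its OCExoInhib values alone and these sizes are uncertain. With Ct above 35 set to 35 they were 4.05, 4.70 and 4.71. They are printed to show that none shares the seed of miR-140.
miR-425: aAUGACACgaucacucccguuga
miR-29c: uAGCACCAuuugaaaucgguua
miR-127: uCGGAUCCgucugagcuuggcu
These are at chr9:108568789-108568811, chr1:195037600-195037621 and chr12:109592888-109592909, all on the plus strand of GRCm38.p6, and with miR-140 they held 4 distinct seeds. Their raw Ct values lay between 33.724 and 36.802 in vehicle samples and between 28.616 and 30.490 in OCExoInhib samples. They thus shared the late vehicle cycles with miR-140, but the OCExoInhib level was not particular to them. The 7 miRNAs that rose had OCExoInhib mean log2 levels from 0.27 to 0.87. Those of the 20 that fell were −0.86 to −0.019, except miR-107 at −2.31. Vehicle means were −6.02 to −4.40 for those that rose and 2.41 to 7.15 for those that fell. Why calls in both directions lay near the level of the wells in OCExoInhib samples was not tested.

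Closest to miR-145 were let-7e (r 0.992), miR-378 (0.983) and miR-151-3p (0.975), all of which fell. The identical OCExoInhib values of let-7e and miR-151-3p enter these correlations. In vehicle samples 1, 2 and 3 let-7e was at 26.413, 25.543 and 25.474 and miR-151-3p at 28.331, 25.860 and 27.613, so both differed from miR-145 there. Closest to miR-27b were miR-501-5p (r 0.958), miR-192 (0.877) and miR-467a (0.873), none of which passed on the deposited normalization. All of these were earliest in vehicle 2 within the vehicle group, as miR-27b was, at 28.682, 23.319 and 25.151. They were picked for likeness to miR-27b, which was highest in vehicle 2, so this follows largely from the choice. Vehicle 2 also had the earliest median Ct of the vehicle samples, at 26.714 beside 28.167 and 27.903.

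**Figure D5:**
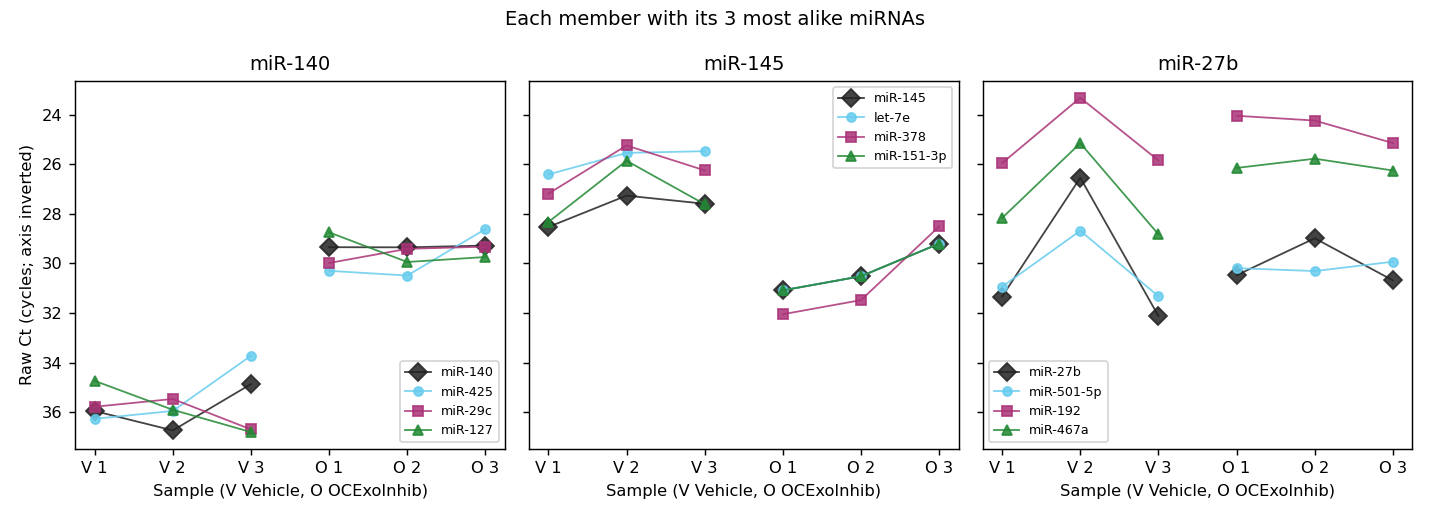
Raw Ct (cycles, inverted axis) of each member and its 3 most alike miRNAs in vehicle (V) and OCExoInhib (O) samples, with lines only to guide the eye. miR-140 and its 3 most alike share late vehicle values, the points of miR-145, let-7e and miR-151-3p coincide in all OCExoInhib samples, and the miR-27b set is earliest in vehicle 2 within vehicle.

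Markers of other sources of serum RNA were measured in part. The defining red cell miRNAs miR-451 and miR-486, miR-126-3p of platelets and endothelium, the leukocyte miRNAs miR-142-3p and miR-155, miR-122 of liver and miR-1 and miR-133b of muscle gave no Ct. Of 3 tested red cell miRNAs 1 fell, and their mean log2 level ran from 3.86 to 6.06 in vehicle and from 2.64 to 3.25 in OCExoInhib samples. The 2 measured liver miRNAs ran from 4.40 to 5.93 and from 1.97 to 2.87, and 1 of them fell. The 2 muscle miRNAs ran from −1.30 to 0.81 and from −2.17 to −1.31, again with 1 that fell, and the 2 platelet miRNAs from −0.67 to 0.12 and from −3.84 to −2.48, with 1 tested and lower. The 2 leukocyte miRNAs overlapped between groups, at −1.41 to −1.04 and −1.85 to −0.98, and the 1 tested did not pass. miR-223 was in both the platelet and the leukocyte list and was not tested, with a Ct under 35 in fewer than 3 samples. Each of these 2 means thus averages miR-223 with 1 tested miRNA, miR-21 for platelets and miR-150 for leukocytes. The list of smooth muscle and fibroblast miRNAs held miR-145 and miR-143, of which the latter gave no Ct. The red cell, liver and muscle lists each held 1 miRNA that fell, miR-16 (−5.41), miR-194 (−5.27) and miR-133a (−2.82), and the platelet list miR-21 (−4.87), all of which carried repeated Ct differences. The other tested members of those lists did not pass, at −0.56 and −0.39 for red cells, −0.16 for liver and −0.28 for muscle. The part of these miRNAs in the results for miR-140 and miR-145 was not tested.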

How the data were processed

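Serum exosome miRNA was measured by SYBR Green quantitative PCR in 3 vehicle and 3 OCExoInhib samples. Per the labels' protocols, exosomal RNA was isolated on columns, reverse transcribed with a mouse exosome profiling kit and run for 40 cycles on a ViiA7. Raw values are Ct, per the file headers. Normalized values subtract a spike-in control's Ct and so are on a log2 scale, per the file headers, and 738 of 738 equalled the raw Ct minus the mean of wells P21 to P23, within 0.001. Another table gives the authors' fold, as the deposited ratio of vehicle to OCExoInhib. The Ct threshold and baseline are not stated in the labels or files used here. The tables held 0 unmapped sample columns.

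The comparison used limma 3.58.1 under R 4.3.3 (two-sided, lmFit with eBayes) over 115 miRNAs with Ct under 35 in at least 3 samples, with Benjamini-Hochberg adjustment and a threshold of 0.05. The fit was tested on simulated data with independent normal noise for each miRNA. Those data modelled neither the loss of precision at late cycles nor repeated Ct differences, so that test does not cover them. Precision is limited by 3 samples a group. Alternatives were other normalizations, single normalizer wells, late-cycle rules, leaving out each sample, a replicate block, other variance models (one a plain linear model) and leaving out miRNAs whose Ct differences repeat. Members, lists and alternatives were chosen with earlier results of these data known. Named miRNAs are the members, their cluster partners and list members, the wells, and for each member the 3 most correlated miRNAs and any with equal Ct. Deviations from group means correlated by 0.059, 0.018 and 0.117 between samples of one number, so numbers were not treated as pairing. Sequences are from the deposited table, and positions are from RefSeq (GRCm38.p6), which matched 6 of the 6 printed miRNAs. Figures were drawn with matplotlib 3.10.9 under Python 3.11.15.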

Additional observations from a re-analysis of the deposited data

How the results depend on the processing

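miR-140 kept its direction and call in the 19 alternatives with at least 2 samples a group, with differences of 5.19 to 6.43 when samples were left out. It had no value with Ct under 35 required in all samples, since 2 of its vehicle values were late. miR-145 kept its direction in 20 alternatives and its call in 17, with −3.52 to −2.86 when samples were left out. It was not past the threshold at −2.02 (global mean), −1.33 (quantile) and −0.67 (median centring), and it had no value without miRNAs that carry a repeated difference. The difference of miR-27b, never called, turned to 0.405 (global mean), 0.525 (quantile) and 1.75 (median centring), and it ranged from −1.70 to 0.78 when samples were left out.

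Of all tested miRNAs, 27 passed as reported, 24 to 27 with a sample left out, 16 with quantile normalization, 15 with the plain linear model and 5 without repeated differences. With Ct under 35 in all samples 19 passed, 0 higher and 19 lower, since the miRNAs that rose were not tested. With late values set to missing 20 passed as lower. Higher calls are not counted there, because none of the 7 miRNAs that rose kept more than 1 vehicle value. Median centring gave 68, with 57 higher and 11 lower against 7 and 20. The cartilage list had 4 calls, 4 with each sample left out, 2 with global mean, 2 with quantile, 2 with Ct under 35 in all samples and 1 without repeated differences. Median centring gave 6 list calls, all higher. With the sample number as a replicate block the differences were the same (5.80, −3.20 and −0.77, adjusted p 0.0174, 0.0142 and 0.775), 25 miRNAs passed and no call of a member changed. Apart from the filters and exclusions, which remove miRNAs, the cause was not tested.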

Other observations

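The raw Ct of miR-140 spanned 0.072 cycles over the 3 OCExoInhib samples. This was the smallest raw SD in that group among the 115 tested miRNAs, 0.0399 cycles beside a median of 0.870. After subtraction of the normalizer wells its SD was 0.491. miR-27b had the largest raw SD of the vehicle group, 3.02 cycles beside a median of 0.951, and spanned 5.577 cycles there. Both features were chosen after their values were seen.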
